A study of Mus musculus with 6 samples.

Results

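The TAM receptors Axl, Mertk and Tyro3, their ligands Gas6 and Pros1, and 5 other genes of apoptotic cell uptake (Mfge8, Stab1, Lrp1, Elmo1 and Cd300lf) were examined by RNA-seq in control and PGAM5 KD iBMDMs. These 10 genes were taken by their GENCODE M21 symbols from the 54532 genes listed in each library, and they were chosen with the difference between the control and PGAM5 KD libraries already known. Their values in that comparison are therefore given as a description, without a test. iBMDMs are macrophages grown from the bone marrow of WT mice and immortalized with retroviruses that encode v-raf and v-myc, so all 6 libraries came from cells with these oncogenes. The control cells received a control shRNA and the PGAM5 KD cells an shRNA against Pgam5, the gene of a mitochondrial phosphatase, each carried by a lentivirus. Both groups had received LPS at 100 ng/ml for 4 hours, with 3 libraries per group, so the comparison is between the groups after LPS and no induction over untreated cells was measured. The labels tell no separate shRNAs or lines apart within a group, so an effect of the knockdown and a difference between the lines cannot be told apart. Whether the 3 replicates were separate cultures is not given, so the p-values measure the spread between these libraries, which may be technical.

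Apoptotic cells expose phosphatidylserine, a lipid that living cells keep on the inner side of the membrane. Macrophages read it directly, through receptors such as Stab1 and members of the Cd300 family, or through bridging proteins such as Gas6 and Pros1, which link it to the TAM receptor tyrosine kinases, and Mfge8, which links it to integrins. Bound receptors signal through adaptors such as Elmo1 to the actin skeleton, which draws the dying cell in, a process named efferocytosis. In macrophages the TAM receptors are also known for restraining Toll-like receptor and interferon signalling through the suppressors Socs1 and Socs3.

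Expression is given as FPKM, the fragments on a gene scaled to its exon length and to the depth of the library, as deposited. The recovered depth was 18163462 to 24388914 fragments per library, and every pair of replicates differed by more than sampling noise (chi-square per degree of freedom 4.68 to 7.79), so none was counted as a copy. Pgam5 had 17.1, 13.0 and 13.4 FPKM in control and 4.33, 5.75 and 4.53 FPKM in PGAM5 KD libraries, a log2 fold change of -1.40 (SE 0.13, limma adjusted p = 0.000358, exact permutation p = 0.1, the smallest that 3 libraries against 3 allow). Of 9 macrophage markers 8 were above 1 FPKM, and their summed level was 2977 to 3062 FPKM in control and 2689 to 2717 FPKM in PGAM5 KD libraries. Single markers moved in both directions, with log2 fold changes of -0.64 for Csf1r, 0.85 for Adgre1 and 1.51 for Fcgr1, and Mrc1 was at 0.0605 FPKM or less. No marker of neutrophils, fibroblasts, lymphocytes, dendritic cells or endothelial cells reached 1 FPKM, and the highest value among them was 0.460 FPKM. The part of the marker shifts in the values below was not tested. In bulk RNA, fewer cells that express a gene and less RNA per cell cannot be told apart.

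The promoters of 4 of the genes are printed because these genes carry the pattern described below: Axl and Lrp1 were lower in PGAM5 KD cells, Cd300lf was higher, and Mertk had no fragment in any library. Each window holds 250 bases before and 50 after the RefSeq transcription start in GRCm38.p6, 5′ to 3′ on the strand of the gene. They lie at chr7:25788684-25788983 on the minus strand for Axl, chr2:128698665-128698964 on the plus strand for Mertk, chr10:127621099-127621398 on the minus strand for Lrp1, and chr11:115133943-115134242 on the minus strand for Cd300lf. Capitals mark matches, on either strand, to the letters of any motif searched.
Axl: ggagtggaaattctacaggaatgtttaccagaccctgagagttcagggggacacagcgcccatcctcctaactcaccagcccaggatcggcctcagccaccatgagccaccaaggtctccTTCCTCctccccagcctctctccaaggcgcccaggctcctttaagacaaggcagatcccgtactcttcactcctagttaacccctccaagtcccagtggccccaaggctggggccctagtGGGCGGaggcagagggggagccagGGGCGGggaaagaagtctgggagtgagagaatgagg
Mertk: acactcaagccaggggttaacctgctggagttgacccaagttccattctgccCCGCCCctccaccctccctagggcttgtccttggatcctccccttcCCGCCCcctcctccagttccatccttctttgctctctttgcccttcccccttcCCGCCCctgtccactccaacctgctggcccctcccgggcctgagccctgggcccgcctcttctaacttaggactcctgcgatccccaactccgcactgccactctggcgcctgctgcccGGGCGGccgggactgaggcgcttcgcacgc
Lrp1: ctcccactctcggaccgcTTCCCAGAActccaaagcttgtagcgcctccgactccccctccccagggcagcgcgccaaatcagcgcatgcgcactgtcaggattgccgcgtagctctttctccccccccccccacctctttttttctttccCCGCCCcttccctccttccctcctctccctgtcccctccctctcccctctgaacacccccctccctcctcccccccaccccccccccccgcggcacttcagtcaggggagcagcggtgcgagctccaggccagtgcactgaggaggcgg
Cd300lf: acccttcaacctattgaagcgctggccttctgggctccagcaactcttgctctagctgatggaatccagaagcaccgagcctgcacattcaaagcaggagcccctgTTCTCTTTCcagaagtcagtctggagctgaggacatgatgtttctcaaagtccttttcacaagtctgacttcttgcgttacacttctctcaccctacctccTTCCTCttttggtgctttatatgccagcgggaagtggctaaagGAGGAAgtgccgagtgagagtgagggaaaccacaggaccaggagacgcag

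All 10 genes had a RefSeq promoter window, and Elmo1 had 2 of them, which makes 11 windows to set against 32851 windows over all genes. The GC box GGGCGG, a site of Sp family factors, was in the windows of 8 of the 10 genes (Axl, Elmo1, Gas6, Lrp1, Mertk, Mfge8, Pros1 and Tyro3) and in 35.7% of all windows. The Axl window held 2 GC boxes, that of Mertk 4, that of Lrp1 1 and that of Cd300lf 0. The core GAGGAA bound by PU.1, a transcription factor that defines the macrophage lineage, was in the windows of Axl, Cd300lf, Elmo1, Mfge8 and Stab1, and in 28.3% of all windows. The letters GAAANNGAA, the core of the interferon-stimulated response element, were found for Cd300lf and Elmo1 and in 8.56% of all windows. The STAT site TTCNNNGAA was found for Elmo1, Lrp1 and Pros1 and in 8.30% of all windows, and the MAF site TGCTGA for Stab1 and in 19.5% of all windows. No window of the 10 genes held the AP-1 site TGANTCA (7.81% of all windows), the NF-kB site GGGNNTTTC (4.36%) or the E-box CACGTG (7.15%). The capitals in the 4 printed sequences are thus GC boxes and 1 PU.1 core for Axl, GC boxes for Mertk, a STAT site and a GC box for Lrp1, and an interferon core and 2 PU.1 cores for Cd300lf. No matches overlapped in these 4 windows. GC content was 60.3% for Axl, 66.0% for Mertk, 67.7% for Lrp1 and 51.7% for Cd300lf, beside a median of 52.7% over all windows. A match of letters is a description and shows neither binding nor its absence.

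Of the TAM receptors, nearly all measured RNA was Axl, and Axl was lower in every PGAM5 KD library. Axl (ENSMUSG00000002602, GRCm38 chr7:25757273-25788705, minus strand) had 6.18, 7.17 and 5.85 FPKM in control libraries and 0.931, 1.55 and 1.40 FPKM in PGAM5 KD libraries. Every control library was far above every PGAM5 KD library, and the groups did not overlap. These values rest on 565, 728 and 575 fragments in control and 103, 142 and 172 fragments in PGAM5 KD libraries. The mean was 6.40 ± 0.685 FPKM in control and 1.30 ± 0.324 FPKM with PGAM5 KD (SD, n = 3), a control level 4.94 times that of PGAM5 KD cells. On the log2(FPKM + 1) scale, which understates the change of genes with few FPKM, the log2 fold change was -1.69 (SE 0.13). The mean level of Axl lay above that of 40.1% of the 10540 genes tested in control cells and above that of 4.94% of them in PGAM5 KD cells.

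Mertk (ENSMUSG00000014361, GRCm38 chr2:128698956-128802894, plus strand), the TAM receptor best known for efferocytosis by resident macrophages, had 0 fragments in all 6 libraries. With 3 fragments taken as an approximate upper limit for a count of 0, the limit for Mertk is 0.0284 to 0.0381 FPKM per library. This limit counts sampling noise only, and replicates differed by more than that, so it is not a strict bound. Genes on both sides of it on chromosome 2 were measured: Anapc1 had means of 21.8 FPKM in control and 18.2 FPKM in PGAM5 KD cells, and Tmem87b had 3.75 and 3.07 FPKM. No exon of another gene overlapped those of Mertk. Tyro3 (ENSMUSG00000027298, GRCm38 chr2:119797733-119818104, plus strand), the remaining TAM receptor, had 0.133, 0.0880 and 0.0413 FPKM in control and 0.0734, 0.0355 and 0.119 FPKM in PGAM5 KD libraries. These are 4 to 18 fragments per library, and the groups overlapped.

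Axl therefore made up 97.9% to 99.3% of the summed FPKM of the TAM receptors in control libraries and 92.2% to 97.8% in PGAM5 KD libraries. The sum itself was 5.89 to 7.26 FPKM in control and 1.00 to 1.59 FPKM in PGAM5 KD libraries. Mertk added nothing to the sum in any library, and Tyro3 added at most 0.133 FPKM.

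Both TAM ligands were at low levels. Gas6 (ENSMUSG00000031451, GRCm38 chr8:13465374-13494490, minus strand), which binds all TAM receptors, had 0.670, 0.7002 and 0.281 FPKM in control and 0.304, 0.821 and 0.370 FPKM in PGAM5 KD libraries, with 14 to 38 fragments per library. The highest and the lowest values were in different groups, and the groups overlapped. Pros1 (ENSMUSG00000022912, GRCm38 chr16:62854307-62929346, plus strand), which encodes protein S, an anticoagulant that binds Mertk and Tyro3, had 0.498, 0.958 and 0.664 FPKM in control and 1.47, 0.902 and 1.69 FPKM in PGAM5 KD libraries. PGAM5 KD replicate 2 lay below control replicate 2, so the groups overlapped, while the other PGAM5 KD libraries were above every control library. The mean of Pros1 was 0.707 ± 0.233 FPKM in control and 1.35 ± 0.404 FPKM with PGAM5 KD (SD, n = 3), on 37 to 168 fragments per library. Its log2 fold change was 0.46 (SE 0.18). That value was 0.96 by voom on the recovered fragments and 0.85 with a pseudocount of 0.1.

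The level of Axl RNA beside the sum of both TAM ligands differed between the groups. The ratio of Axl FPKM to the summed FPKM of Gas6 and Pros1 was 4.32 to 6.19 in control libraries and 0.525 to 0.901 in PGAM5 KD libraries, while the ligand sum was 0.945 to 1.66 FPKM in control and 1.72 to 2.06 FPKM in PGAM5 KD libraries. This sum includes Pros1, described above as binding Mertk and Tyro3, so it is not the ligand level for Axl alone. Gas6 by itself had means of 0.550 FPKM in control and 0.498 FPKM in PGAM5 KD cells, with groups that overlapped. These are ratios of RNA levels and do not measure the proteins.

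**Figure D1:**
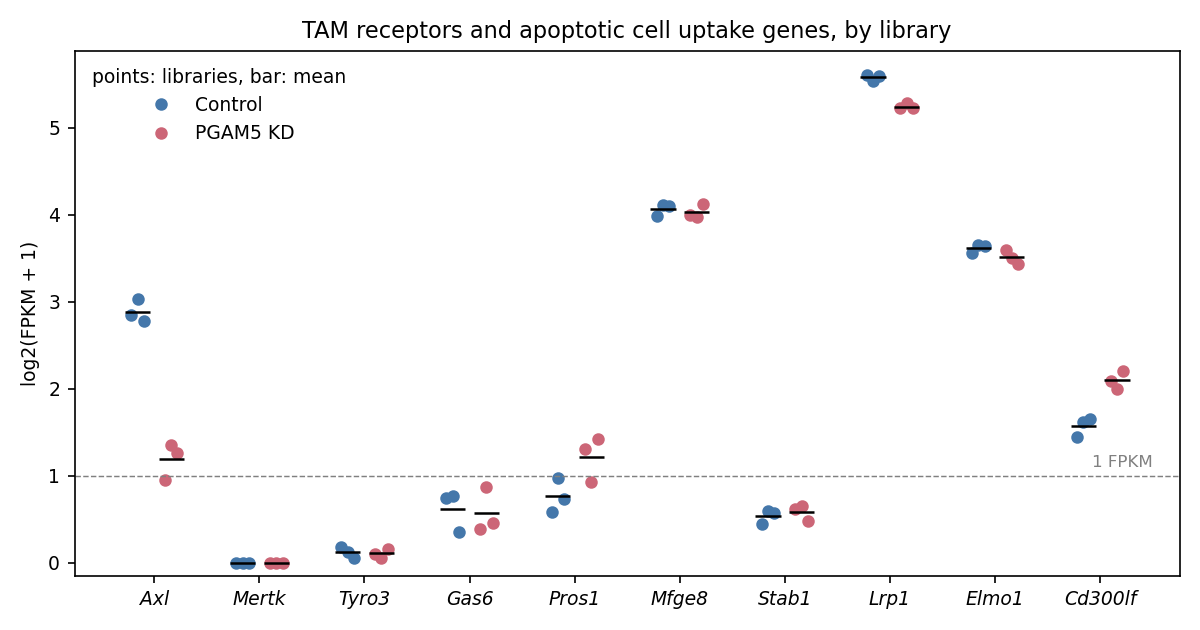
Level of each of the 10 genes on the log2(FPKM + 1) scale, with 1 point per library, control in blue and PGAM5 KD in red, the group mean as a bar, and a dashed line at 1 FPKM. Axl (6.40 against 1.30 FPKM) and Lrp1 (46.9 against 36.9 FPKM) were lower in PGAM5 KD libraries and Cd300lf (1.98 against 3.28 FPKM) was higher, each without overlap, and Mertk lay at 0 throughout.

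Among the other uptake genes, Lrp1 was at the highest level of the 10 genes and was lower in every PGAM5 KD library. Lrp1 (ENSMUSG00000040249, GRCm38 chr10:127538161-127621148, minus strand) encodes a large endocytic receptor that takes up calreticulin-bearing cells as well as lipoproteins and protease complexes. It had 47.7, 45.6 and 47.3 FPKM in control and 36.3, 38.0 and 36.3 FPKM in PGAM5 KD libraries, on 12229 to 16370 fragments. The libraries of each group lay close together and the groups did not overlap. The means were 46.9 ± 1.10 and 36.9 ± 0.981 FPKM (SD, n = 3), a ratio of control to PGAM5 KD of 1.27 and a log2 fold change of -0.34 (SE 0.04). The antisense gene Gm16217 lies within Lrp1 but shares no exon base with it, and had means of 1.76 and 1.35 FPKM.

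Cd300lf (ENSMUSG00000047798, GRCm38 chr11:115116214-115133992, minus strand) encodes an inhibitory receptor of myeloid cells that binds phosphatidylserine. It had 1.71, 2.07 and 2.15 FPKM in control and 3.24, 2.99 and 3.62 FPKM in PGAM5 KD libraries, on 160 to 454 fragments. All PGAM5 KD libraries were above all control libraries. The means were 1.98 ± 0.233 and 3.28 ± 0.313 FPKM (SD, n = 3), so that PGAM5 KD cells were at 1.66 times the control level, with a log2 fold change of 0.53 (SE 0.10). Axl and Cd300lf thus changed places: the ratio of Axl to Cd300lf in FPKM was 2.72 to 3.61 in control and 0.287 to 0.519 in PGAM5 KD libraries. By mean level over all genes tested, Cd300lf lay above 11.5% of genes in control and above 22.5% in PGAM5 KD cells.

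For Mfge8, Elmo1 and Stab1 the libraries of the groups overlapped. Mfge8 (ENSMUSG00000030605, GRCm38 chr7:79133768-79149060, minus strand), the secreted bridge to integrins, had 14.9, 16.3 and 16.1 FPKM in control and 15.0, 14.7 and 16.4 FPKM in PGAM5 KD libraries. The log2 fold change was -0.03 (SE 0.06) on 1257 to 1883 fragments. Elmo1 (ENSMUSG00000041112, GRCm38 chr13:20090596-20608353, plus strand), which with Dock proteins activates Rac1 during engulfment, had 10.8, 11.5 and 11.5 FPKM in control and 11.0, 10.4 and 9.77 FPKM in PGAM5 KD libraries. PGAM5 KD replicate 1 lay among the control libraries, and the log2 fold change was -0.11 (SE 0.06). The antisense gene Gm32036 shares 3.20% of the exon bases of Elmo1 and had at most 0.0194 FPKM. Stab1 (ENSMUSG00000042286, GRCm38 chr14:31139013-31168641, minus strand), a scavenger receptor that binds phosphatidylserine, had 0.364, 0.506 and 0.483 FPKM in control and 0.531, 0.573 and 0.399 FPKM in PGAM5 KD libraries, on 68 to 120 fragments. Of its exon bases 1.09% are shared with Nt5dc2 on the opposite strand, which had means of 21.1 and 20.4 FPKM, and whether the counting used strand is not given, so fragments of the pair on these bases cannot be told apart.

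**Figure D2:**
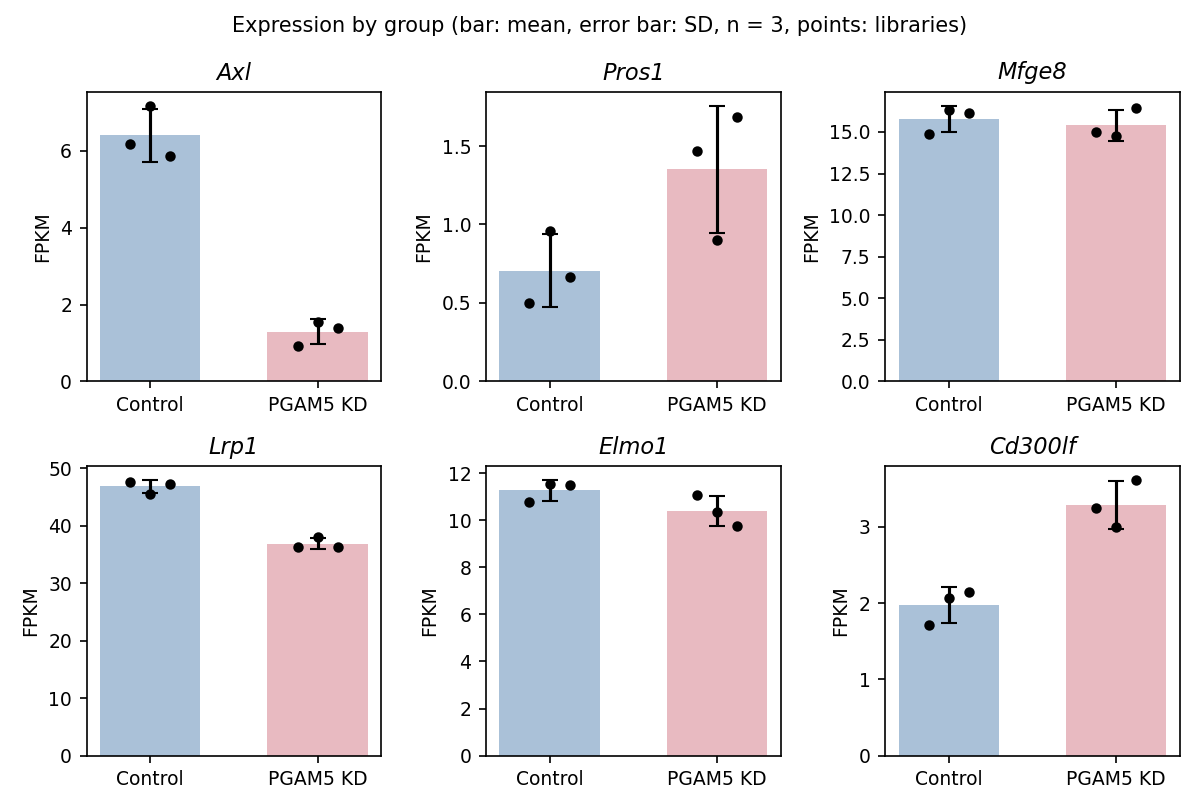
FPKM of the 6 genes with a mean of at least 1 FPKM over the 6 libraries. Bars are group means from 0, error bars the SD (n = 3), and points the libraries. Control and PGAM5 KD libraries were separate for Axl, Lrp1 and Cd300lf and overlapped for Pros1, Mfge8 and Elmo1.

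In control cells the order of the 10 genes by mean FPKM was Lrp1, Mfge8, Elmo1, Axl, Cd300lf, Pros1, Gas6, Stab1, Tyro3 and Mertk. In PGAM5 KD cells it was Lrp1, Mfge8, Elmo1, Cd300lf, Pros1, Axl, Stab1, Gas6, Tyro3 and Mertk. Axl thus passed from the place above Cd300lf to a place below it and beside Pros1. The libraries of neighbours in this order overlapped for Pros1 and Gas6 and for Gas6 and Stab1 in control cells, and for Pros1 and Axl and for Stab1 and Gas6 in PGAM5 KD cells. The other neighbours were separate in their group.

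Of the 10 genes, 6 had a mean of at least 1 FPKM and entered the limma fit of log2(FPKM + 1) over 10540 genes, while Mertk, Tyro3, Gas6 and Stab1 did not. Just inside this limit was Pros1 (1.03 FPKM), which passed only through the PGAM5 KD libraries, and just outside was Gas6 (0.524 FPKM). At an adjusted p under 0.05, 3 of the 6 were past the threshold, Axl and Lrp1 lower and Cd300lf higher, in a fit that called 31.7% of all genes tested, 16.8% as higher and 14.9% as lower in PGAM5 KD. Only Axl was also past an absolute log2 fold change of 1, as were 1.32% of all genes tested. Libraries of the groups did not overlap for 3 of the 6, nor for 47.1% of all genes tested. The 6 log2 fold changes had a median of -0.07, with 2 above and 4 below 0, and the median over all genes tested was 0.01. Since the 10 genes were chosen on this comparison, nothing is read from these counts. Over all genes 1771 were higher and 1575 lower (52.9% higher), and after scaling to TPM 1088 were higher and 2282 lower (32.3% higher).

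Cd300lf lies in a cluster of receptor genes on chromosome 11, and its relatives did not move as one. Of 12 Cd300 genes 6 had a mean of at least 1 FPKM, Cd300lf included. Cd300a, an inhibitory receptor that also binds phosphatidylserine, fell from 15.0 ± 0.775 to 9.65 ± 0.445 FPKM (SD, n = 3), a log2 fold change of -0.59 (SE 0.06, limma adjusted p = 0.000438 over all genes). Cd300lb, an activating receptor, fell from 57.9 ± 2.10 to 41.2 ± 1.72 FPKM (SD, n = 3), with a log2 fold change of -0.48 (SE 0.04, limma adjusted p = 0.000399). Cd300ld fell from 15.4 ± 0.126 to 13.3 ± 0.605 FPKM (SD, n = 3), a log2 fold change of -0.20 (SE 0.05, limma adjusted p = 0.0188), and was no longer past the threshold without control replicate 1, control replicate 3 or PGAM5 KD replicate 2 (adjusted p up to 0.0577). Cd300e and Cd300c2 are named here after their values were seen. Cd300e, an activating receptor of monocytes, had 0.949, 1.85 and 0.932 FPKM in control and 8.65, 8.89 and 6.89 FPKM in PGAM5 KD libraries, with a log2 fold change of 2.04 (SE 0.17, limma adjusted p = 0.000251). Cd300c2 had 2.37, 2.57 and 2.29 FPKM in control and 4.96, 4.32 and 3.28 FPKM in PGAM5 KD libraries, with a log2 fold change of 0.59 (SE 0.13, limma adjusted p = 0.0128). In each of these 5 genes the groups did not overlap, as with Cd300lf, and none changed direction under any alternative run.

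Cd300 genes resemble each other, which bears on how fragments were assigned. The longest coding transcript of Cd300lf matched that of Cd300ld at 94.8% identity over 349 bases, and those of Cd300ld2, Cd300ld3, Cd300ld4 and Cd300ld5 at 90.9% to 91.5% over 352 bases, though these last had means of 0.357 FPKM or less. Cd300lf held 17.7% to 21.3% of the fragments on Cd300lf and Cd300ld in control libraries and 31.5% to 33.7% in PGAM5 KD libraries. Scaled to library depth alone, the fragments of the pair summed to 49.8 to 52.0 CPM in control and 48.9 to 55.3 CPM in PGAM5 KD libraries, so the sum overlapped between the groups while the share did not. The split of fragments between Cd300lf and Cd300ld is therefore uncertain where their sequences match, and its part in the level of Cd300lf was not tested.

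**Figure D3:**
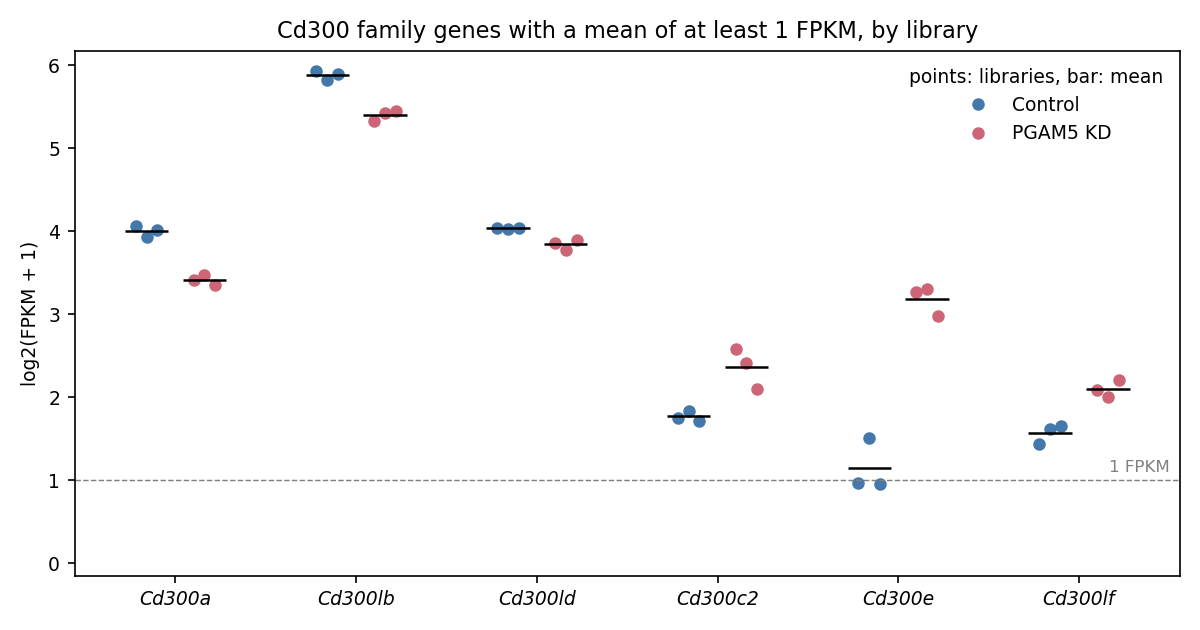
Level of the 6 Cd300 genes with a mean of at least 1 FPKM, on the log2(FPKM + 1) scale, with points for libraries (control blue, PGAM5 KD red), bars for group means and a dashed line at 1 FPKM. Cd300a, Cd300lb and Cd300ld were lower and Cd300c2, Cd300e and Cd300lf higher in PGAM5 KD libraries.

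The wider pathway was followed through 6 lists of other uptake genes, 101 genes in all, which were written with earlier results of these data known. Of these 66 were tested, 14 rose and 14 fell in PGAM5 KD cells, 38 did not pass the threshold, and 11 had no fragment in any library. After scaling to TPM 8 rose and 19 fell, and after quantile normalization 10 rose and 16 fell. The share past the threshold was 42.4%, beside 31.7% over all genes tested, and the lists were not tested as sets. Their median log2 fold changes lay between -0.10 and 0.10, beside a median of 0.01 over all genes tested.

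Genes that mature, shed or transmit the TAM signal moved in both directions. In this list 12 of 14 genes were tested, 3 rose and 2 fell, with a median log2 fold change of -0.03. Socs3, a feedback inhibitor of cytokine receptors that TAM signalling is known to use, rose from 38.9 ± 2.08 to 87.9 ± 0.806 FPKM (SD, n = 3), a log2 fold change of 1.16 (SE 0.04, limma adjusted p = 1.54e-05). Adam10, a protease that sheds cell surface receptors, rose from 43.0 to 54.8 FPKM (log2 fold change 0.34, limma adjusted p = 0.00148). Vkorc1l1, which recycles the vitamin K needed to activate Gas6 and protein S, fell from 12.8 ± 0.625 to 6.85 ± 0.794 FPKM (SD, n = 3), a log2 fold change of -0.82 (SE 0.08, limma adjusted p = 0.000578). Pik3r1, the regulatory subunit of phosphoinositide kinase, fell from 4.30 to 3.22 FPKM (limma adjusted p = 0.0136). Other maturation and shedding genes of the list, Ggcx, Vkorc1 and Adam17, did not pass the threshold. Their log2 fold changes were -0.13, -0.05 and -0.06 (limma adjusted p = 0.365, 0.861 and 0.408). Twist1, a repressor that Axl is known to induce, had no fragment in any library.

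Among 22 other receptors for apoptotic cells 11 were tested, and 4 rose and 4 fell, with a median log2 fold change of -0.08 (3 rose and 5 fell after scaling to TPM). Msr1, a class A scavenger receptor, rose from 11.6 ± 0.315 to 24.9 ± 0.793 FPKM (SD, n = 3), a log2 fold change of 1.04 (SE 0.04, limma adjusted p = 2.05e-05). Cd14, a co-receptor for LPS that also tethers apoptotic cells, rose from 461 ± 7.58 to 683 ± 13.4 FPKM (SD, n = 3; limma adjusted p = 2.68e-05). The class B scavenger receptor Cd36 rose with a log2 fold change of 0.31 (limma adjusted p = 0.0119). Itgav, the integrin subunit through which Mfge8 acts, fell from 25.3 ± 0.857 to 17.8 ± 0.139 FPKM (SD, n = 3), a log2 fold change of -0.48 (SE 0.04, limma adjusted p = 0.000247). Its partner Itgb5 had a log2 fold change of 0.22 (limma adjusted p = 0.0448), which did not pass the threshold in 9 of 15 alternatives, 5 of them with 1 library left out (adjusted p up to 0.133), and the other partner, Itgb3, was at a mean of 0.0120 FPKM. Cd300a, Cd300lb and Cd300ld, described above, made up the other genes of this list that fell. The phosphatidylserine receptors Timd4 and Havcr1 had no fragment in any library.

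Of 16 other bridging molecules and eat-me signals 5 were tested, 11 averaged under 1 FPKM, and 6 had no fragment in any library. Calr and Lgals3 were at high levels, with means of 398 and 228 FPKM over the 6 libraries, and did not pass the threshold. The complement genes C1qa and C1qb, which coat dying cells and are high in many tissue macrophages, had means of 0.0318 and 0.0157 FPKM over the 6 libraries, and C1qc was at 0. Anxa1 rose from 71.7 ± 0.401 to 80.8 ± 2.27 FPKM (SD, n = 3), a log2 fold change of 0.17 (SE 0.03, limma adjusted p = 0.00833), which did not pass after quantile normalization or scaling to TPM (adjusted p up to 0.0864). Plscr1, a phospholipid scramblase, had a log2 fold change of 0.21 (limma adjusted p = 0.0476), which did not pass in 10 of 15 alternatives, 5 of them with 1 library left out (adjusted p up to 0.136).

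The engulfment machinery beside Elmo1 was measured almost in full, with 20 of 22 genes tested, 2 risen, 3 fallen and 15 not past the threshold. After scaling to TPM 0 had risen and 6 had fallen, and after quantile normalization 0 had risen and 4 had fallen. Dock5, an exchange factor of the family that pairs with Elmo proteins, fell from 14.1 ± 0.603 to 10.0 ± 0.236 FPKM (SD, n = 3), a log2 fold change of -0.45 (SE 0.05, limma adjusted p = 0.000753). The GTPase Cdc42 fell from 139 to 117 FPKM (log2 fold change -0.25, limma adjusted p = 0.00229) and the adaptor Crkl from 15.8 to 13.7 FPKM (log2 fold change -0.19, limma adjusted p = 0.0139). The GTPases Rhog and Rac2 had log2 fold changes of 0.19 (limma adjusted p = 0.0315) and 0.10 (limma adjusted p = 0.0306). Rhog did not pass in 8 of 15 alternatives (adjusted p up to 0.166) and Rac2 in 10 of 15 (adjusted p up to 0.629). Without control replicate 3, PGAM5 KD replicate 2 or PGAM5 KD replicate 3, 3 genes of this list were past the threshold instead of 5.

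Receptors that restrain uptake or sense signals from dying cells had 8 of 13 genes tested, 1 risen and 3 fallen, with a median log2 fold change of -0.10. Lilrb4a, an inhibitory receptor of myeloid cells, fell from 29.6 ± 1.74 to 15.2 ± 0.731 FPKM (SD, n = 3), a log2 fold change of -0.92 (SE 0.06, limma adjusted p = 7.74e-05). Sirpa, the receptor of the signal Cd47 that protects living cells from uptake, fell from 66.2 ± 1.79 to 49.4 ± 0.754 FPKM (SD, n = 3), a log2 fold change of -0.41 (SE 0.03, limma adjusted p = 0.000237). P2ry6, a receptor for the nucleotide UDP, rose from 12.8 to 17.0 FPKM (log2 fold change 0.38, limma adjusted p = 0.0109). The sphingosine phosphate receptor S1pr2 had a log2 fold change of -0.35 (limma adjusted p = 0.029), which did not pass in 7 of 14 alternatives, 5 of them with 1 library left out (adjusted p up to 0.0847).

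Of 14 genes for transcription and cholesterol efflux after uptake, 10 were tested, 2 rose and 2 fell, and 1 rose and 2 fell after scaling to TPM or quantile normalization. Rxra, the partner of nuclear receptors that sense engulfed lipid, fell from 2.90 ± 0.317 to 1.35 ± 0.0907 FPKM (SD, n = 3), a log2 fold change of -0.73 (SE 0.10, limma adjusted p = 0.00188). The cholesterol exporter Abcg1 fell from 26.9 to 22.9 FPKM (log2 fold change -0.23, limma adjusted p = 0.0138). Klf2, a transcription factor that restrains inflammatory genes, rose from 6.07 ± 1.16 to 10.9 ± 2.11 FPKM (SD, n = 3), a log2 fold change of 0.75 (SE 0.16, limma adjusted p = 0.0135). Rxrb had a log2 fold change of 0.17 (limma adjusted p = 0.0414), which did not pass in 10 of 15 alternatives (adjusted p up to 0.1998). Pparg and Maf, which go with efferocytic macrophages in tissues, had means of 0.0115 and 0.0382 FPKM over the 6 libraries.

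**Figure D4:**
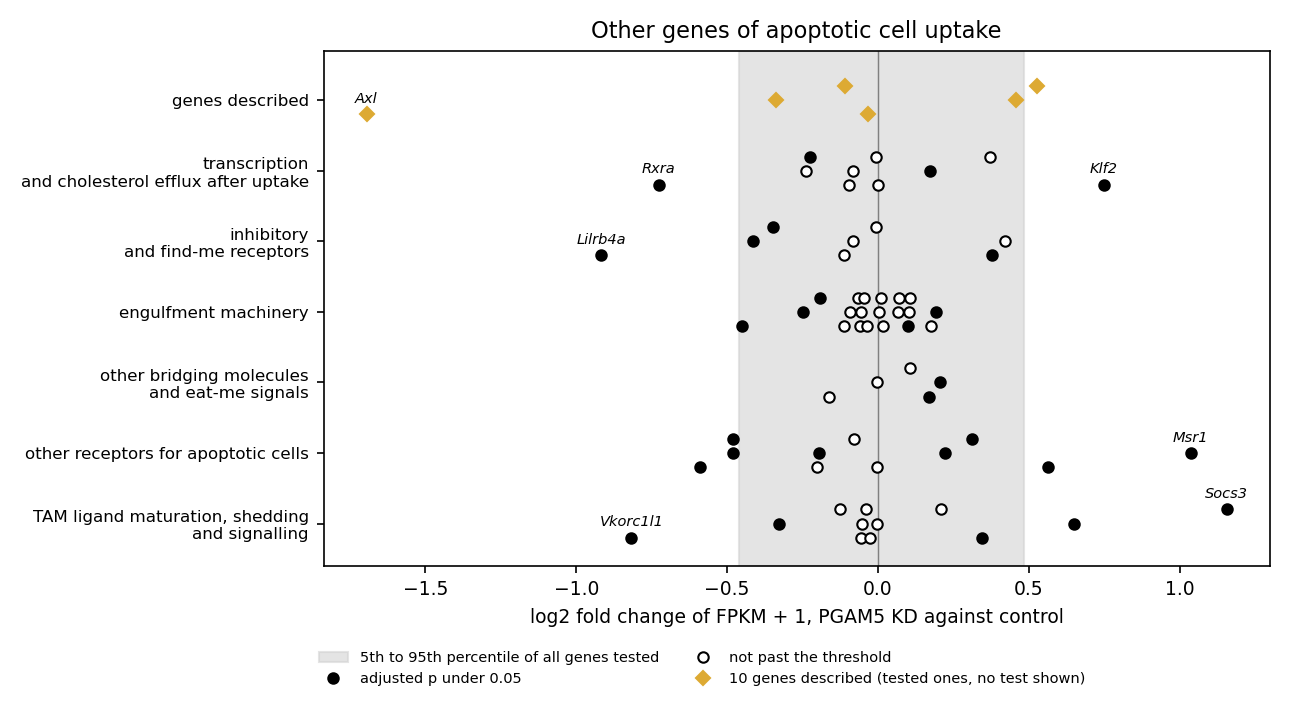
Log2 fold change of FPKM + 1, PGAM5 KD against control, for the 66 tested genes of the 6 lists (filled where past the adjusted threshold, open where not) and, in yellow and with no test, the tested genes among the 10 described. The grey band holds the 5th to 95th percentile of all genes tested, from -0.46 to 0.49. Axl lay at -1.69, below every gene of the lists, and Socs3 (1.16) and Msr1 (1.04) lay farthest to the right.

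The direction of the log2 fold change did not turn for any of the 6 tested genes among the 10 under any alternative run. It ranged from -2.34 to -1.58 for Axl, from -0.42 to -0.33 for Lrp1, from 0.46 to 0.74 for Cd300lf and from 0.35 to 0.96 for Pros1. For Elmo1 it ranged from -0.19 to -0.07 and for Mfge8 from -0.11 to -0.01, with groups that overlapped. Leaving out 1 library at a time kept Axl between -1.78 and -1.58 and Cd300lf between 0.46 and 0.58.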

How the data were processed

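RNA-seq was done on 6 libraries of poly(A) RNA, 3 from control and 3 from PGAM5 KD iBMDMs, grouped by their labels. The authors deposited FPKM, 1 table per library, and the submitters' processing notes name HISAT2 2.0.5, featureCounts 1.5.0-p3 and mm10; the annotation and the strand setting are not given in the sources used here. Of 54532 identifiers 54495 were in GENCODE M21 (GRCm38). FPKM times exon length fell on whole fragments (within 0.01, under 1000 fragments) for 96.8% to 97.1% of values, which gave the depth, a limit on counting error only. FPKM summed to 304393 to 304889 in control and 317936 to 324298 in PGAM5 KD libraries.

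The 10540 genes averaging at least 1 FPKM were fitted on the log2(FPKM + 1) scale with limma 3.58.1 in R 4.3.3 (eBayes with trend, two-sided, Benjamini-Hochberg over all genes tested, adjusted p under 0.05), and tested on simulated data. The study's methods name iDEP with an absolute log2 fold change above 1. Alternatives were a pseudocount of 0.1, no filter, a mean of at least 5 FPKM, quantile normalization, TPM, centring on the median, no trend, a replicate block, voom on recovered fragments, and leaving out each library. Similar transcripts were found with blastn 2.17.0 (at least 85% identity over 200 bases). Python 3.11.15 (pandas 2.3.3, matplotlib 3.10.9) was used for the remaining steps.

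The 10 genes and all lists were chosen with earlier results of these data known. All 10 genes are described. Of each list at most 4 genes past the threshold are named, by size of change, with those that a count of 5 or fewer falls on; some genes of the lists are not reported here. Promoters are from RefSeq. The other experiments of the study were not analysed here.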

Additional observations from a re-analysis of the deposited data

How the results depend on the processing

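Of 3346 genes called, the alternatives called 2340 (without PGAM5 KD replicate 3) to 3877 (voom), all within 1.5 times. With an absolute log2 fold change above 1 as well, 139 were called, against 261 with a pseudocount of 0.1, 233 after scaling to TPM, 283 by voom and 76 with a mean of at least 5 FPKM, where 7092 genes were tested. At that limit 1 of the 10 genes, Lrp1, was past the threshold, since Axl and Cd300lf were not tested, and 3 genes of the TAM maturation and signalling list instead of 5. Instead of 3 at the usual limit of 1 FPKM, 4 of the 10 genes were past the threshold by voom and without PGAM5 KD replicate 2, with Pros1 added, and nothing is read from these counts of genes chosen on this comparison. Of the engulfment list, 3 genes instead of 5 were called with no filter and with no trend, and 3 to 4 with 1 library left out. Of the bridging list, 1 gene instead of 2 was called with no filter, quantile normalization or no trend, 0 after scaling to TPM, 3 after centring on the median, and 1 to 2 with 1 library left out. The causes were not tested, apart from genes no longer tested. Of the 28 list genes called, 20 passed in every alternative and 8 failed in 1 or more, and no list gene called changed sign. Pgam5 ranged from -1.50 to -1.28 with 1 library left out.

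The labels number the replicates 1 to 3 in both groups, but same-numbered libraries did not deviate together (correlations of -0.02, 0.02 and -0.05). Whether same-numbered libraries shared a culture or batch is not given, and these correlations over 3 libraries per group cannot decide it. With the replicate block 2652 genes were called, 1 of them in the bridging list. Tyro3 and Gas6 had at most 38 fragments per library, so small differences in them were not detectable at this depth.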
